A study of Mus musculus with 6 samples.

Results

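Potassium channel genes were followed in mouse retina at postnatal day 21, on 3 arrays labelled wildtype and 3 labelled knockout for ERRβ. ERRβ, the product of Esrrb, is a nuclear receptor with no known hormone. Members were all probe sets whose only gene symbol begins with Kcn, and they came to 167 probe sets of 84 genes, out of 45037 probe sets and 18193 named genes on the array. Each gene was represented by its brightest probe set, the one with the highest mean log2 signal over the 6 arrays. Of the 84 genes, 54 passed a filter on low signal, with 97 probe sets, and only these were tested. The wildtype samples were of strain C57Bl/6 and the labelled knockout samples were ERRβ -/- on a C57Bl/6 x Sv129 background, so genotype and strain differ together. Each sample held 2 pooled retinas of mixed sex from animals on standard chow and a light-dark cycle, and the labels do not say whether samples of a group share animals, and the p-values cover only the spread seen among these samples.

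Potassium channels set the resting potential of a cell and end its electrical signals by letting potassium out along its gradient. In photoreceptors, voltage-gated channels of the inner segment carry the outward current that balances the inward current of the outer segment in darkness, and they help shape the light response. Müller glia, the radial glia of the retina, take up the potassium that neurons release and pass it on through inward rectifiers. Bipolar, amacrine and ganglion cells use other voltage-gated, calcium-activated and two-pore-domain channels for transient signals and spikes. Members also include auxiliary subunits, which change the gating or delivery of a channel, and 3 noncoding transcripts named after a neighbouring channel gene.

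The arrays had been scaled as a whole to 2 levels, with a trimmed mean of 500 for replicates 1 and 2 of each group and 150 for replicate 3 of each group. A signal is therefore compared only among the 4 arrays scaled near 500 or between the 2 scaled near 150. Correlations of log2 signals over all 45037 probe sets were 0.91 to 0.95 within a scaling and 0.848 to 0.872 between scalings. The 2 sets of arrays differed by more than their level. Prph2, a rod gene, read 14114 and 14987 in wildtype near 500 but 89.4 near 150. The wildtype sum of the lens genes below was higher near 150 than near 500, where that of rod genes was lower. What else differed between the sets is not given. Log2 fold changes are labelled knockout minus wildtype, with the standard error (SE, n = 3 per group) of a limma fit over all kept probe sets in which the scaling is a term. A gene is said to have risen or fallen only where its adjusted p was under 0.05. Markers of lens cells moved with the groups: 13 of 14 tested lens genes rose, and their summed signal was 3464 and 2691 in wildtype against 57407 and 50653 in labelled knockout near 500, and 6779 against 39760 near 150. Of 10 tested genes of the pigment epithelium 4 rose, with sums of 44715 and 46427 against 52028 and 59581 near 500 and 2603 against 3373 near 150. Of 9 rod genes, 7 cone genes and 8 Müller glia genes none passed. Their summed signals were 269960 and 272050 against 211840 and 238530 for rods, 40046 and 41173 against 42852 and 45051 for cones, and 71433 and 72687 against 73710 and 83673 for Müller glia near 500. Near 150 they were 38286 against 37236 for rods, 7248 against 7049 for cones and 13157 against 13291 for Müller glia, so the order of the cone sums turned. No tested bipolar, amacrine, ganglion or horizontal cell gene passed. Ganglion sums were 27760 and 27552 against 23555 and 25754 near 500 and 4549 against 4104 near 150. Bipolar and amacrine sums were higher in labelled knockout near 500 and lower near 150, and horizontal sums overlapped near 500. As a measure of RNA quality, Actb had a ratio of 3′ over 5′ signal of 1.83, 1.89 and 2.32 in wildtype replicates 1 to 3 against 1.82, 1.66 and 1.67 in labelled knockout. No signal in the table was 0, and the part of other cell types or of RNA quality in the results below was not tested. In whole retina, fewer cells of a type and less RNA per cell cannot be told apart. The brightest probe set of Esrrb had a log2 fold change of 0.37 ± 0.082 (adjusted p = 0.0529), above 0 and not below it. The position of its probes relative to the deletion is not known here, which means this checks nothing about the labels, and the group is called labelled knockout throughout.

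Both genes that mark this set were measured. Kcnv2 encodes Kv8.2, a modulatory subunit of the photoreceptor that is silent alone and joins other voltage-gated subunits. Its signal was 3568 and 4089 in wildtype against 5121 and 5310 in labelled knockout arrays near 500 and 1344 against 1550 near 150. Both labelled knockout arrays were above both wildtype arrays at the first scaling, and the order was the same at the second. The log2 fold change was 0.37 ± 0.087 and missed the threshold (adjusted p = 0.0614). In a fit of the arrays near 500 alone it passed (0.45, adjusted p = 0.00579). Kcnj10 encodes Kir4.1, the main inward rectifier of Müller glia, and its 2 scalings went opposite ways, as described below.

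Few members changed. Of 54 tested genes 1 rose and 2 fell, against a background of 1.28% of 12536 genes called higher and 1.48% called lower. The 3 called members are 5.56% of 54, beside 2.75% of all genes. Over single probe sets, 1 of 97 rose and 3 fell, where 1.04% of all kept probe sets were called higher and 1.22% lower, 2.25% in all. At an unadjusted p under 0.05, 3 members were higher (background 11.5%) and 7 lower (background 9.84%). The median log2 fold change of the 54 genes was -0.09, with 23 above and 31 below 0, and that of all genes was 0.02. Without regard to direction, the median size was 0.25 for members and 0.17 for all genes. When each array was centred on its own median, the median of the members was 0.01 and that of all genes 0.12. Centring shifts all genes of an array by the same amount, so it could not change the gap between members and all genes. That centring turned the split of all called probe sets, from 280 higher and 329 lower to 165 higher and 119 lower.

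**Figure D1:**
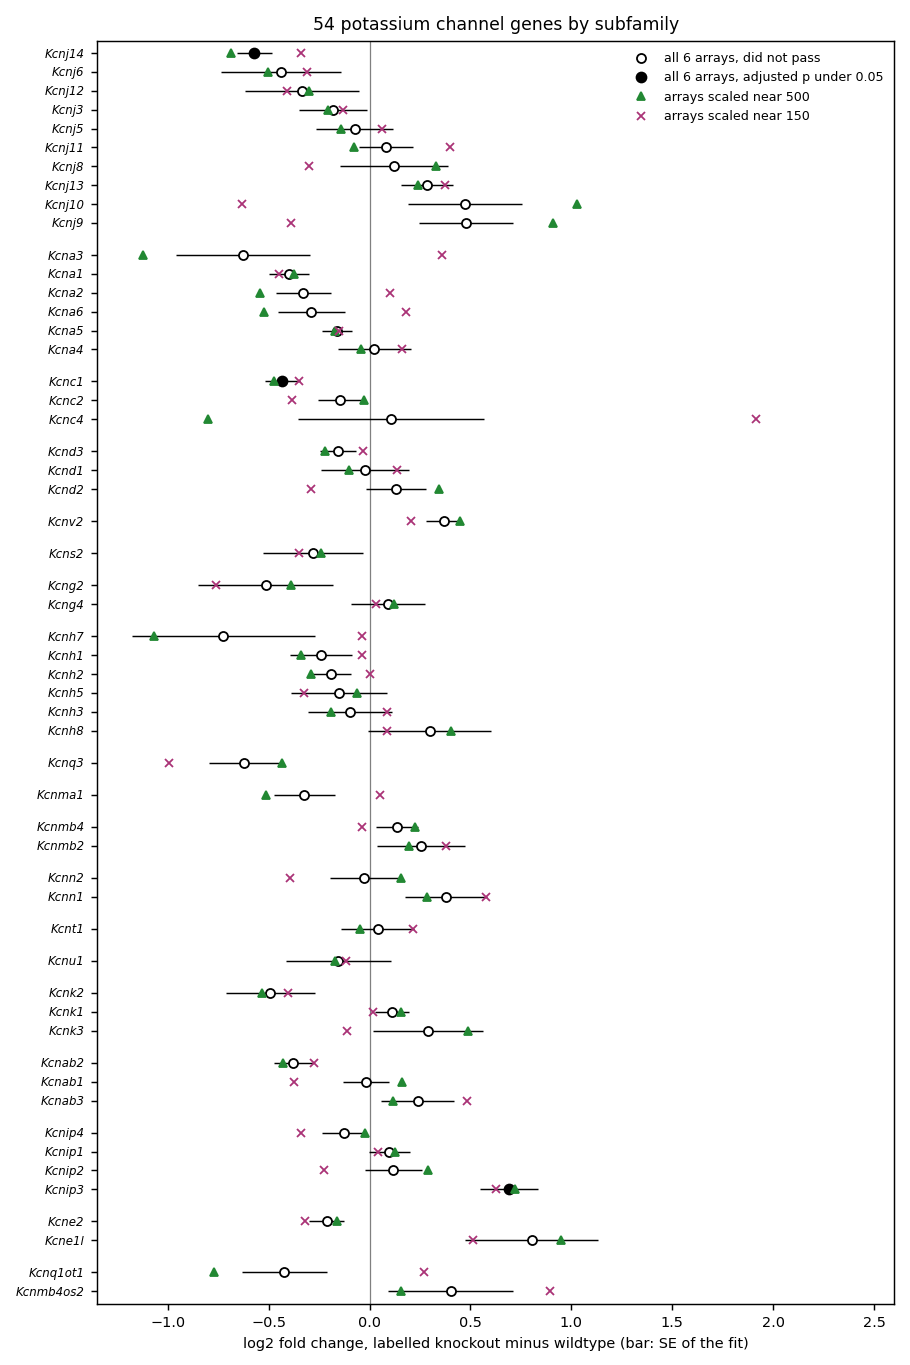
Log2 fold change (x axis, labelled knockout minus wildtype) of the 54 tested potassium channel genes, in rows by subfamily, from all 6 arrays (circles with the SE of the fit, filled where adjusted p was under 0.05), from the 4 arrays scaled near 500 (triangles) and from the 2 scaled near 150 (crosses). Kcnj14, Kcnc1 and Kcnip3 are filled, and for Kcnj10, Kcnj9 and Kcnc4 the triangle and the cross lie on opposite sides of 0.

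The inward rectifiers (Kcnj) had 15 genes on the array, of which 10 were tested, 1 fell and none rose. Kcnj14 encodes Kir2.4, a strong inward rectifier found in neurons. Its signal was 7277 and 7333 in wildtype against 4451 and 4633 in labelled knockout arrays near 500 and 2000 against 1579 near 150. The groups did not overlap near 500, where the spread within each group was small beside the gap, and the order was the same near 150. On the log2 scale Kcnj14 fell by 0.57 ± 0.086, a 1.49-fold decrease (adjusted p = 0.013), with -0.69 near 500 and -0.34 near 150. With the replicate number as a block it still passed (adjusted p = 0.0428).

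Kcnj10 showed the widest split between scalings among the 10 tested inward rectifiers. It read 568 and 488 in wildtype against 976 and 1180 in labelled knockout arrays near 500, but 275 in wildtype and 177 in labelled knockout near 150. The labelled knockout arrays were thus higher at the first scaling and lower at the second, with log2 fold changes of 1.03 and -0.63. Over all 6 arrays it had 0.47 ± 0.28 and did not pass (adjusted p = 0.379). Kcnj10 is 1 of the 8 Müller glia genes above. Of the other 7, 3 had a value above 0 near 500 and below 0 near 150. These were Aqp4, the water channel that shares the Müller glia end feet with Kir4.1 (0.46 and -0.14), Slc1a3, a glutamate transporter (0.13 and -0.36), and Glul, glutamine synthetase (0.02 and -0.18). The other 4 were above 0 at both scalings, with 0.13 and 0.40 for Dkk3, 0.18 and 0.03 for Rlbp1, 0.15 and 0.42 for Apoe and 0.16 and 0.27 for Vim.

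Kcnj9, which encodes the G protein-gated subunit GIRK3, is the neighbour of Kcnj10 on chromosome 1 and moved in the same way. Its brightest probe set read 597 and 758 in wildtype against 1221 and 1310 in labelled knockout arrays near 500 and 243 against 185 near 150, for log2 fold changes of 0.91 and -0.39. Its other kept probe sets did not share this pattern. The second had 0.33 at both scalings, and the third had -1.57 near 500 and 0.07 near 150, and the gene as a whole has no direction here.

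These opposite signs were tested as an interaction of genotype with scaling, in a limma fit added after the values at each scaling were seen. The test takes the lone arrays near 150 to vary like those near 500. The difference passed for 3 of 54 members, Kcnj10 (adjusted p = 0.0142), Kcnj9 (0.0343) and Kcnc4 (0.0188), where 1.17% of all genes passed. At an unadjusted p under 0.05 it was 11 members, beside 15.8% of all genes. Kcnc4, singled out after its values were seen, encodes Kv3.4, a fast inactivating channel. It read 435 and 353 against 208 and 244 near 500, and 18.1 against 68.4 near 150, where the wildtype signal was under the array median of 57.3. Its probe set is of a type whose probes can bind several transcripts.

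**Figure D2:**
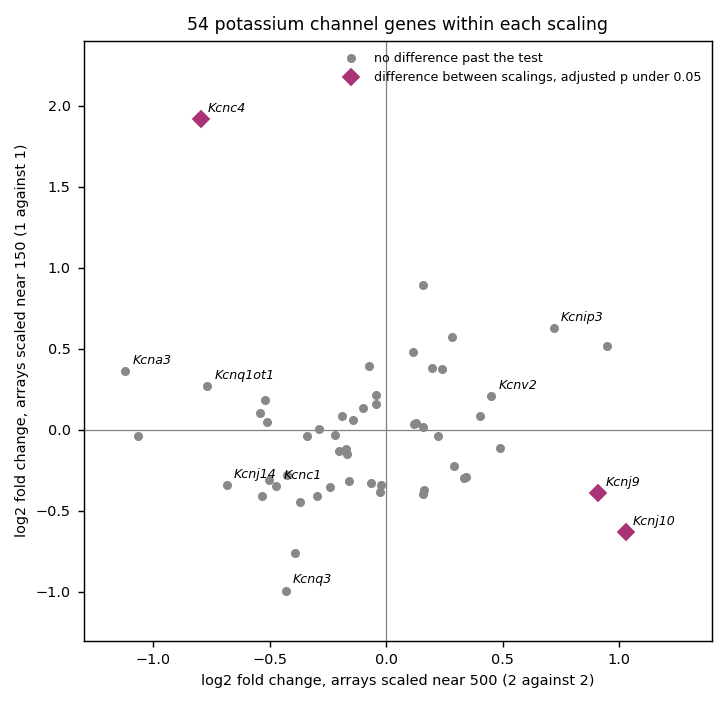
Log2 fold change of each of the 54 tested genes among the 4 arrays scaled near 500 (x axis) against that between the 2 arrays scaled near 150 (y axis). Kcnc4, Kcnj10 and Kcnj9 (diamonds) differed between scalings past the test, while Kcnj14, Kcnc1 and Kcnip3 keep 1 sign in both.

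Among the other inward rectifiers, Kcnj13 encodes Kir7.1, the apical channel of the pigment epithelium. It read 532 and 531 in wildtype against 621 and 634 in labelled knockout arrays near 500 and 60.1 against 78.0 near 150. The labelled knockout arrays were higher at both scalings, by 0.28 ± 0.13 over all arrays, and the gene did not pass (adjusted p = 0.256). Over the same arrays the pigment epithelium genes Tyrp1 and Pmel rose by 0.77 and 1.05, and Rpe65 had 0.52 and did not pass. The part of pigment cells in the value of Kcnj13 was not tested. The pore subunits of ATP-sensitive channels, Kcnj11 and Kcnj8, had 0.08 and 0.12, and the GIRK genes Kcnj3, Kcnj5 and Kcnj6 had -0.18, -0.07 and -0.44, with no call. Kcnj2, the gene of Kir2.1, was under the filter, with signals of 1.48 to 13.9 over the 6 arrays.

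Upstream windows are shown for 5 members: the called genes Kcnc1 and Kcnip3, the neighbours Kcnj9 and Kcnj10, and Kcnj16, the single member that held the element to which ERR receptors are known to bind. Each runs 5′ to 3′ on the gene's strand over the 250 bases before an annotated start, from RefSeq on GRCm38.p6, in lower case. Capitals mark TNAAGGTCA, the extended ERR response element, or TAATCC, a site of the photoreceptor factor CRX, on either strand. Kcnc1 has 1 start, at chr7:46396218-46396467 on the plus strand, and Kcnip3 is shown at the most upstream of its 3 starts, chr2:127522095-127522344 on the minus strand. Kcnj9 lies at chr1:172329323-172329572 on the minus strand and Kcnj10 at chr1:172340960-172341209 on the plus strand. Kcnj16, which encodes Kir5.1, a partner of Kir4.1, is shown at 1 of its 4 starts, chr11:110967783-110968032 on the plus strand.
Kcnc1: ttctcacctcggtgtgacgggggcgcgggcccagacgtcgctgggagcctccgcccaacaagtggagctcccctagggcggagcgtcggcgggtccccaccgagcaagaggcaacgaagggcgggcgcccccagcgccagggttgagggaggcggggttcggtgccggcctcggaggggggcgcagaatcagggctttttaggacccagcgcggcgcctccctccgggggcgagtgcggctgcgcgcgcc
Kcnip3: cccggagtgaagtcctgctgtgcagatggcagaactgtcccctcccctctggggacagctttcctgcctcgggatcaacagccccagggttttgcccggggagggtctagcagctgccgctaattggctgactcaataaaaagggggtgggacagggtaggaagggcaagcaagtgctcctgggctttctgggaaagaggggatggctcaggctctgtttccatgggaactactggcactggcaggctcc
Kcnj9: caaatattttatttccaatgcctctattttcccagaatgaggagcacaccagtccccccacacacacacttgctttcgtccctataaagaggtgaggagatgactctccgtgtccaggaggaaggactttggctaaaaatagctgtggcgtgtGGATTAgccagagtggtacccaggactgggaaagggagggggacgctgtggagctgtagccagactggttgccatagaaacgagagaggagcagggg
Kcnj10: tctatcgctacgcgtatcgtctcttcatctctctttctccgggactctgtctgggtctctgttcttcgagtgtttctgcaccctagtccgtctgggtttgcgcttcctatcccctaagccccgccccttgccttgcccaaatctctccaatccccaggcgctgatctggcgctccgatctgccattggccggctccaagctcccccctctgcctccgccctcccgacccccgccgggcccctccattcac
Kcnj16: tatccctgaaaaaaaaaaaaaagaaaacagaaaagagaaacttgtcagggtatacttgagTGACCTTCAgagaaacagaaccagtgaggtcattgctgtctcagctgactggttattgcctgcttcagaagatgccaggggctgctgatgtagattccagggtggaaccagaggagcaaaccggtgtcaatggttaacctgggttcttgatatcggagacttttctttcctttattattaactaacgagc

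The promoter table held 89 starts of 64 of the 84 members. TNAAGGTCA was found on either strand in 1 of these 89 windows, beside 1.14% of 32851 windows of all genes. That window belongs to Kcnj16, 182 to 190 bases before its start, and Kcnj16 was under the signal filter. The shorter AAGGTCA, which lies within the longer element, was in 3 windows, of Kcnf1, Kcnh1 and Kcnj16, beside 4.08% of all windows. TAATCC was in 1 window, that of Kcnj9 at 92 to 97 bases before the start, beside 6.25% of all. A match is a run of letters and not a shown binding site, and these letters were not found in the windows of Kcnc1 and Kcnip3. The window of Kcnj14 was not searched here. The windows of members had a median GC content of 58.8%, beside 52.4% for all windows.

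The voltage-gated Kv1 family (Kcna) had 6 tested genes, of which none passed on the brightest probe set, 5 had a log2 fold change below 0 and the median was -0.31. That median was -0.45 near 500 and 0.13 near 150, so its sign turned between scalings. Its channels repolarise axons and inner segments and set how easily a neuron fires. Kcna1 (Kv1.1) read 1171 and 1170 in wildtype against 962 and 850 in labelled knockout arrays near 500 and 312 against 228 near 150. The groups did not overlap near 500 and had the same order near 150, and the log2 fold change was -0.40 ± 0.099 (adjusted p = 0.0701). Its other 2 kept probe sets had -0.45 and -0.39, with the same sign in all 3.

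Kcna2 (Kv1.2) read 1563 and 1432 in wildtype against 993 and 1060 in labelled knockout arrays near 500 and 269 against 289 near 150, on its brightest probe set. This was lower in labelled knockout near 500 only, and it did not pass over all arrays (-0.33 ± 0.14, adjusted p = 0.217). A second probe set of Kcna2 was lower at both scalings, with 1356 and 1131 against 874 and 862 near 500 and 265 against 176 near 150. On the log2 scale it fell by 0.54 ± 0.11 (adjusted p = 0.0367), but it did not pass with the replicate number as a block (adjusted p = 0.083). Kcna3 (Kv1.3), among the 5 lowest log2 fold changes with -0.63 ± 0.33, read 237 and 249 against 136 and 91.7 near 500 but 40.05 against 51.5 near 150 (adjusted p = 0.327). Kcna5 (Kv1.5) had -0.16 ± 0.074 with the same sign at both scalings. Kcna3 and Kcna2 are neighbours on chromosome 3, and Kcna5, Kcna1 and Kcna6 follow each other on chromosome 6. All 5 were lower in labelled knockout near 500, and of them Kcna1 and Kcna5 were also lower near 150.

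The Kv3 family (Kcnc) lets neurons and photoreceptors repolarise quickly, and all 3 of its genes on the array were tested. Kcnc1 (Kv3.1) read 2164 and 2007 in wildtype against 1484 and 1518 in labelled knockout arrays near 500 and 524 against 412 near 150. Each labelled knockout array was below its wildtype counterparts. On the log2 scale Kcnc1 fell by 0.43 ± 0.085, a 1.35-fold decrease (adjusted p = 0.0358), with -0.47 near 500 and -0.35 near 150. It did not pass with the replicate number as a block (adjusted p = 0.0955). Its other kept probe sets had -0.23 and 0.05 and did not pass, the last with -0.27 near 500 and 0.68 near 150. Kcnc2 (Kv3.2) read 1423 and 1531 against 1542 and 1357 near 500, where the groups overlap, and 624 against 478 near 150 (-0.15 ± 0.11).

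The Kv4 family (Kcnd) gives the transient A-type current of neurons. None of its 3 tested genes passed, with -0.16 for Kcnd3, -0.02 for Kcnd1 and 0.13 for Kcnd2. Kcnd2 (Kv4.2) read 596 and 618 against 811 and 729 near 500 but 208 against 170 near 150, so its sign turned between scalings. The modulatory subunits that are silent alone had Kcnv2 as their brightest member, described above. Kcns2 (Kv9.2) overlapped near 500, at 289 and 368 against 388 and 196. Kcng4 (Kv6.4) had 0.09 ± 0.18, and Kcng2 (Kv6.2) had -0.51 ± 0.33 with signals of 24.4 to 117 (adjusted p = 0.42).

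The Kcnh family, which holds the EAG, ERG and ELK channels, had 6 tested genes and none passed. Kcnh2 (ERG1), whose current helps a cell return to rest, read 1299 and 1227 against 1055 and 1012 near 500 and 307 against 307 near 150. It was lower in labelled knockout at the first scaling (-0.29) and level at the second (0.0041). Kcnh7 had the lowest log2 fold change among brightest probe sets of members, -0.72 ± 0.45, on signals of 31.9 to 126, and did not pass (adjusted p = 0.403). It lies at the edge of the filter, with a geometric mean signal of 54.9 where the filter was set at 54.5. Kcnq3, of the KCNQ family that carries the slow M current, read 350 and 344 in wildtype against 258 and 256 in labelled knockout arrays near 500 and 134 against 67.1 near 150. The groups stood apart near 500 and had the same order near 150. The log2 fold change of Kcnq3 was -0.62 ± 0.17, and it did not pass (adjusted p = 0.0985).

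**Figure D3:**
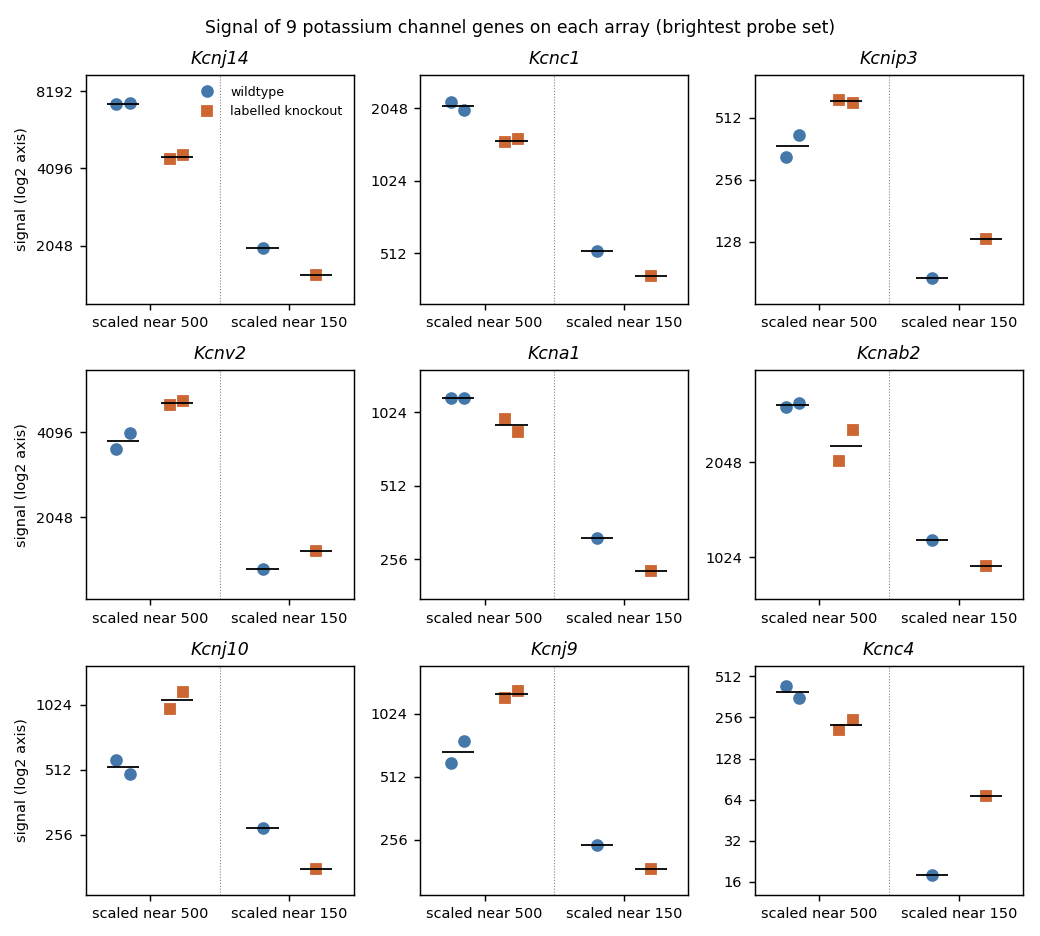
Signal of 9 potassium channel genes on each array (y axis, log2 scale, brightest probe set), with wildtype as circles and labelled knockout as squares, and a bar at the geometric mean of each group at each scaling. Kcnj14, Kcnc1, Kcnip3, Kcnv2, Kcna1 and Kcnab2 keep their order at both scalings, while Kcnj10, Kcnj9 and Kcnc4 turn it.

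Among calcium-activated and sodium-activated channels, Kcnma1 encodes the pore of the large-conductance BK channel, which shapes amacrine and bipolar cell output. Its brightest probe set read 1376 and 1006 in wildtype against 876 and 778 in labelled knockout arrays near 500 and 763 against 791 near 150, and did not pass (-0.32 ± 0.15, adjusted p = 0.266). All 5 kept probe sets of Kcnma1 were below 0 over all arrays, from -1.80 to -0.32. The brightest was above 0 near 150, and so was the one with -1.06 (-1.78 near 500 and 0.37 near 150), while the others were below 0 at both scalings. The probe set nearest to the threshold read 1113 and 1092 against 568 and 815 near 500 and 858 against 626 near 150 (-0.62 ± 0.14, adjusted p = 0.0518). No probe set of Kcnma1 was called. The lowest, with -1.80, read 104 and 116 against 40.03 and 10.2 near 500 and 230 against 161 near 150. The BK auxiliary subunit genes Kcnmb4 and Kcnmb2 had 0.14 and 0.26. The small-conductance genes Kcnn1 and Kcnn2 had 0.38 and -0.03, Kcnt1, a sodium-activated channel, had 0.04, and Kcnu1, a BK relative known from sperm, had -0.15, with no call. A second kept probe set of Kcnn1 had 1.34 ± 0.52 and did not pass (adjusted p = 0.195). It was above 0 at both scalings (0.45 and 3.11), on signals of 2.79 against 24.1 near 150, under the array medians.

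Of 12 two-pore-domain genes (Kcnk), which carry leak current, 3 were tested and none passed. Kcnk1 (TWIK1) read 1725 and 1830 against 2002 and 1960 near 500 and 484 against 490 near 150, a difference of 0.11 ± 0.083. Kcnk2 (TREK1) had -0.49 and Kcnk3 (TASK1) 0.29. The other 9 were under the signal filter.

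Auxiliary subunits held the single member that rose. Kcnip3 encodes KChIP3, also named DREAM and calsenilin, a calcium-binding protein that joins Kv4 channels and can repress transcription. It read 332 and 421 in wildtype against 626 and 604 in labelled knockout arrays near 500 and 85.1 against 132 near 150. Labelled knockout was higher at both scalings, and Kcnip3 rose by 0.69 ± 0.14 on the log2 scale, 1.61-fold (adjusted p = 0.0437), with 0.72 and 0.63. It did not pass with the replicate number as a block (adjusted p = 0.0901). Its second kept probe set agreed in sign near 500 (0.67) and not near 150 (-0.56, on signals of 26.7 and 18.2 under the array medians), and did not pass. Of the other KChIP genes, Kcnip1 had 0.10, Kcnip2 0.12 and Kcnip4 -0.13 on the brightest probe set, and their Kv4 partners gave no call. Kcnip2 had 0.29 near 500 and -0.22 near 150. Its second kept probe set was higher at both scalings and did not pass (0.57 ± 0.17, adjusted p = 0.108). The other kept probe sets had 0.12 and -0.82 for Kcnip1 and 0.03 and 0.06 for Kcnip4.

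Kcnab2, a β subunit of Kv1 channels, read 3075 and 3158 in wildtype against 2067 and 2598 in labelled knockout arrays near 500 and 1163 against 960 near 150. The order was the same at both scalings, and the log2 fold change of -0.38 ± 0.098 did not pass (adjusted p = 0.0801). Its second kept probe set had -0.12 ± 0.095 (adjusted p = 0.498), with -0.20 near 500 and 0.03 near 150. Kcnab1 had -0.02, with 0.16 near 500 and -0.37 near 150. Kcne1l, an X-linked subunit gene also known as Kcne5, had the highest log2 fold change among brightest probe sets of members, 0.80 ± 0.33. Its wildtype arrays near 500 read 237 and 101 and it did not pass (adjusted p = 0.211). Kcne2 read 3443 and 2996 against 2846 and 2906 near 500 and 421 against 338 near 150 (-0.21 ± 0.088, adjusted p = 0.213). The noncoding transcripts gave no call. Kcnq1ot1, the imprinted antisense transcript of Kcnq1, had -0.77 near 500 and 0.27 near 150, and Kcnmb4os2 had 0.40 ± 0.31.

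The 3 calls rest on the spread between few arrays. Leaving out wildtype replicate 1, wildtype replicate 2, labelled knockout replicate 1 or labelled knockout replicate 2 ended each of them, with adjusted p of 0.0771 to 0.142 for Kcnj14, 0.168 to 0.19 for Kcnc1 and 0.158 to 0.201 for Kcnip3. The direction stayed in all 16 alternatives for the 3 genes, with log2 fold changes of -0.69 to -0.48 for Kcnj14, -0.47 to -0.34 for Kcnc1 and 0.58 to 0.78 for Kcnip3. Centring arrays on their medians (adjusted p = 0.067, 0.163 and 0.0545) or fitting no variance trend (0.235, 0.246 and 0.223) ended all 3, and a fit with no scaling term called 0 members.

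Within the 4 arrays scaled near 500 the picture was wider. There 4 members rose and 10 fell, 25.9% of 54, beside 14.3% of all genes (7.48% higher and 6.83% lower). Kcnj10, Kcnj9, Kcnip3 and Kcnv2 rose, and Kcna1, Kcna2, Kcna3, Kcna6, Kcnab2, Kcnc1, Kcnc4, Kcnj14, Kcnma1 and Kcnq1ot1 fell. Of these 14, Kcnj10, Kcnj9, Kcna2, Kcna3, Kcna6, Kcnc4, Kcnma1 and Kcnq1ot1 had the opposite sign near 150. Leaving out wildtype replicate 3 or labelled knockout replicate 3 from the fit of all arrays gave 14 and 13 called members, since the array left alone at its scaling then carries no comparison. Over all members 32 of 54 (59.3%) had the same direction at both scalings, beside 56.6% of all genes. Groups did not overlap at either scaling, in the same direction, for 9 members with labelled knockout higher (16.7%, background 19.8%) and for 14 with it lower (25.9%, background 15.5%).

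Of the tested members, 26 had more than 1 kept probe set. All probe sets of a gene lay on the same side of 0 in 13 of these, 8 below and 5 above. Those below were Kcna1, Kcna2, Kcnab1, Kcnab2, Kcnd3, Kcnh1, Kcnma1 and Kcnq1ot1. In the other 13 the sign depended on the probe set, Kcnc1 and Kcnj9 among them. The widest ranges were those of Kcnj9 (-1.02 to 0.48) and Kcnma1 (-1.80 to -0.32).

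**Figure D4:**
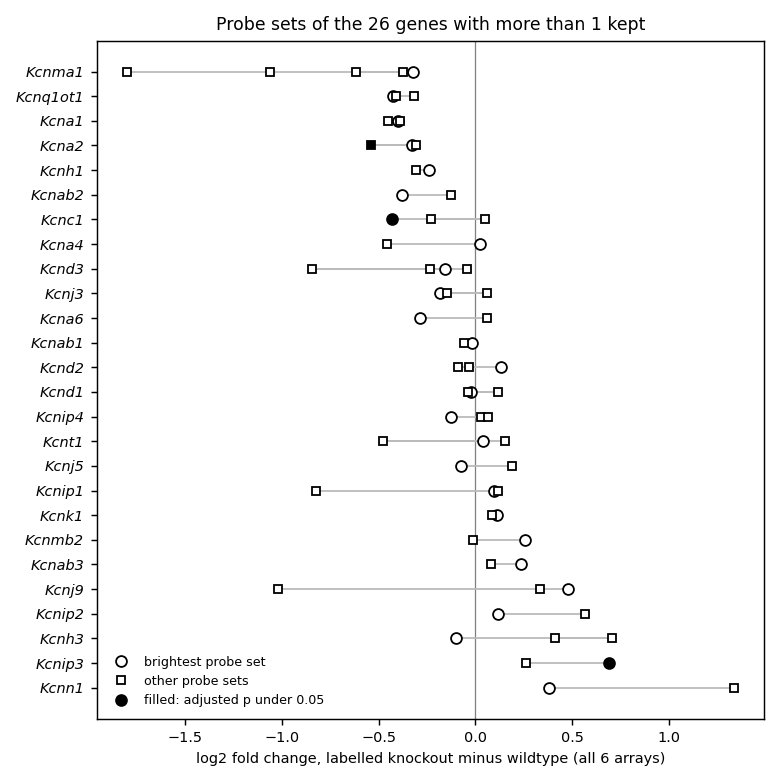
Log2 fold change (x axis, all 6 arrays) of every kept probe set of the 26 genes with more than 1, with the brightest as a circle, others as squares, and filled marks for adjusted p under 0.05. The filled marks are the brightest probe sets of Kcnc1 and Kcnip3 and a second probe set of Kcna2.

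The 30 members under the filter had geometric mean signals of 4.86 to 51.1 (median 22.0), with no signal above 119 near 500 or 58.9 near 150. Kcnk6 with 51.1 lay just outside and Kcnh7 with 54.9 just inside. They include all of Kcnf1, Kcnk4, Kcnk5, Kcnk10, Kcnq1, Kcnq5, Kcnn3 and Kcnv1, for which a low signal says only that these probes did not read well above the dim part of the array.

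Genes whose proteins bind, anchor or regulate these channels without carrying the Kcn name gave no call in limma over all arrays. Of 34 listed genes 29 were on the array under that name, 26 were tested, 0 passed (background 2.75%) and 5 had an unadjusted p under 0.05, where 11.5% of all genes were higher and 9.84% lower at that p. Their median log2 fold change was -0.06. The nearest to the threshold was Gnao1, which encodes the Go α subunit of retinal neurons, with -0.33 ± 0.073, -0.29 near 500 and -0.40 near 150 (adjusted p = 0.0514). Gnb5, the partner of RGS proteins, had -0.33 (adjusted p = 0.085), and Abcc9, the sulfonylurea receptor SUR2, had -0.58 (adjusted p = 0.11). Near 500 alone Gng13 and Aqp4 rose and Gnao1, Gnb5 and Rgs9 fell, where 14.3% of all genes were called. Near 150 the sign was the opposite for Gng13 (-0.15), Aqp4 (-0.14) and Rgs9 (0.54) and the same for Gnao1 (-0.40) and Gnb5 (-0.08). Of the genes that anchor Kir4.1 in Müller glia, Dag1 had -0.06, Dmd 0.03, Sntb1 0.03 and Dtna -0.19. The Kv4 partners Dpp6 and Dpp10 had 0.12 and -0.17.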

How the data were processed

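The deposited table gives, for each of 6 arrays, linear intensities by probe set. The submitters' processing notes name GCOS 1.4 and MAS5, with no role or order given. Of 45101 probe sets, 64 controls were left out. Names came from the platform's annotation, in which 34945 probe sets had 1 symbol, 932 several and 9160 none. Signals were taken to log2 with no further scaling, and probe sets with a mean log2 signal under the 40th percentile (a signal of 54.5) were left out, leaving 27022. The labelled knockout minus wildtype difference was fitted with limma 3.58.1, run in R 4.3.3 (variance trend, two-sided, Benjamini-Hochberg over the kept probe sets, threshold 0.05) with the scaling, read from each array's mean after trimming 2% at either end, as a term. The fit was tested on simulated data. Arrays carry no read depth, and their number limits precision.

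Replicate numbers were checked for pairing. Deviations from group means correlated at 0.57, 0.67 and 0.843 for the same number, which met the rule used (all above 0.1). The scaling was not removed from these deviations, so arrays of 1 scaling correlate whether or not they are paired. Crossed numbers 1 and 2 gave 0.607 and 0.627. The check therefore cannot tell whether the numbers pair the samples. The fit with the replicate number as a block is quoted for the calls it ends or keeps. Named genes were those called, genes listed for a known place in retina (12 of them tested), the brightest of each subfamily, and the 5 highest and 5 lowest log2 fold changes; further members are described for completeness. The members, lists and tests were chosen with earlier results of these data known. The test between scalings and the search for TAATCC were added after values were seen. A search of channel proteins for pore motifs was planned and not done.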

Additional observations from a re-analysis of the deposited data

Results flagged for a closer look

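For 3 members the labelled knockout minus wildtype difference on the log2 scale was not the same at the 2 scalings, by the test of the difference itself in limma. The difference near 500 minus that near 150 was 1.66 for Kcnj10 (1.03 and -0.63, adjusted p = 0.0142). It was 1.3 for the brightest probe set of Kcnj9 (0.91 and -0.39, adjusted p = 0.0343), the neighbour of Kcnj10. For Kcnc4 it was -2.71 (-0.80 and 1.91, adjusted p = 0.0188). Near 150 each group is 1 array, the 2 sets of arrays differed by more than their level, and the cause was not tested.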

How the results depend on the processing

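Counts of called members (1 higher, 2 lower) and of all called probe sets (280 higher, 329 lower) moved with most settings, and the cause was not tested. Higher and lower members numbered 0 and 0 with no scaling term, with median centring and with no variance trend, 0 and 1 with the replicate block, 0 and 2 without the filter, 2 and 2 with quantile normalization and with a filter at the 60th percentile, and 4 and 10 on the arrays near 500 alone. Leaving out 1 array gave 0 to 4 higher and 0 to 10 lower members. All probe sets called higher and lower numbered 0 and 0 with no scaling term (118 at an unadjusted p under 0.05), 93 and 107 with the replicate block, 165 and 119 with median centring, 185 and 220 without the filter, 433 and 522 at the 60th percentile, 1605 and 2082 near 500 alone, 13 and 6 with no variance trend, and 39 to 1513 and 38 to 2209 without 1 array. The median log2 fold change of members was 0.0096 with median centring, -0.0187 without the filter and -0.13 at the 60th percentile, against -0.09. Partner genes called numbered 1 lower with quantile normalization, with 16 added to every signal and at the 60th percentile, 2 higher and 3 lower near 500 alone, and 0 to 2 higher and 0 to 3 lower without 1 array. Among 32 named genes and 16 settings, 442 values kept direction and call, 24 lost a call, 29 gained 1, and 11 that were called in neither fit changed sign. The scaling term, replicate block, filter and variance trend settings leave a log2 fold change as it is, so its direction could not change there. Avoiding probe sets that can bind several transcripts also left the values of the named genes as they were. Leaving out replicate 3 of either group only repeats the log2 fold changes near 500. Of the called genes Kcnj14 kept its call with the replicate block and Kcnc1 and Kcnip3 did not. Without the noncoding transcripts, a setting chosen after seeing the data, the member counts were the same. Signals near or under the array medians limit what can be said of dim members.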
